A study of Mus musculus with 8 samples.

Results

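The 47 genes described here are mouse imprinted genes, coding and non-coding, that were listed by symbol and looked up in a table of counts for 54532 genes from mouse atria; every listed symbol was found. They were grouped into 18 loci. The table holds 8 bulk RNA-seq libraries, 4 labelled Chd4 knockout (KO) and 4 labelled control. All of the mice carried 2 floxed copies of Chd4 (Chd4flox/flox), the gene of a chromatin remodelling ATPase. The KO mice received AAV9:Nppa-Cre on postnatal day 2, an adeno-associated virus that expresses Cre recombinase from the promoter of Nppa, an atrial natriuretic peptide gene, and the controls received AAV9:Nppa-EGFP, which expresses a fluorescent protein from the same promoter. Right and left atria were collected together as mixed cells and polyadenylated RNA was sequenced, so a library holds RNA from cells in which the Nppa promoter is active and from cells in which it is not. The age at collection is not given in the sources used here, and the labels do not say whether each library came from a separate mouse; the p-values below therefore measure the spread between libraries.

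Imprinted genes are transcribed mainly or only from the copy inherited from 1 parent. Their loci are controlled by DNA regions that carry methylation on the maternal or the paternal copy, and several loci also make a long non-coding RNA from one parental copy that silences neighbouring genes in cis or carries small RNAs in its introns and exons. Many of the genes act on growth before and shortly after birth and are known to be switched down in organs, the heart among them, as the animal matures. The counts do not separate the maternal from the paternal copy, so every value is the sum over both.

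Chd4 was 169, 185, 187 and 199.6 counts per 1e6 counts (CPM, scaled by the trimmed mean of M values, TMM) in KO libraries 1 to 4, and 278, 297, 284 and 308 CPM in control libraries 1 to 4, a 1.58-fold lower level (log2 difference -0.66 ± 0.06 SE, edgeR adjusted p = 1.86e-05). Chd4 RNA thus remained at 169 CPM or more in these mixed-cell KO samples. Total counts ran from 34002292 to 38228982 in KO and from 39804625 to 40588007 in control libraries, and 3 counts corresponded to 0.0744 to 0.0885 CPM. No library name prefix in the labels is shared between the groups (KO 1 has its own, KO 2 to 4 share one, controls 1 and 2 share another, and so do controls 3 and 4), so the prefix and the group cannot be told apart. The Y-linked gene Ddx3y was 0.706 to 0.858 CPM in KO 2 and controls 1 and 2 and 105 to 124 CPM in the other 5 libraries. KO 2 and control 2 stood apart from the other libraries on the second principal component, at -21.4 and -30.4 against 1.3 to 14.5, which held 20.3% of the variance.

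Of the 47 genes, 43 passed the filter on low counts. The level of 14 was higher and that of 2 lower in KO atria at an edgeR adjusted p under 0.05 over all 18033 genes tested, and 27 were not called. The 14 are 32.6% of those tested, beside 14.8% of all genes called higher, and the 2 are 4.7%, beside 13.1% of all genes called lower. Scaling by total counts instead of TMM moved the split over all genes from 53.2% of calls higher to 70.1%, and gave 15 imprinted genes higher and 2 lower. In 13 of the 43 every KO library was above every control (all genes, 15.3%), and in 2 every KO library was below (all genes, 13.9%). The median log2 difference was 0.23 over the 43 and 0.01 over all genes tested. Called genes were found in 9 of the 18 loci. The only called differences over 2-fold were those of 4 genes of the Dlk1-Dio3 locus, and elsewhere called differences ran from 1.17-fold to 1.92-fold. Among the 25 genes known for expression from the paternal copy, 7 were called higher, 0 lower, 15 were not called and 3 were not tested. The 7 include Rtl1, Kcnq1ot1, Airn and Zrsr1. If the counting did not use strand, the counts of these may hold reads of RNA from the other strand. Among the 11 known for the maternal copy, 5 were called higher, 0 lower, 5 were not called and 1 was not tested. The remaining 11 were classed as imprinted in only some tissues or in a tissue-dependent direction: 2 were called higher, 2 lower and 7 were not called. These classes are background knowledge. The first 2 classes may also hold genes imprinted in only some tissues, and imprinting in atria was not measured.

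**Figure D1:**
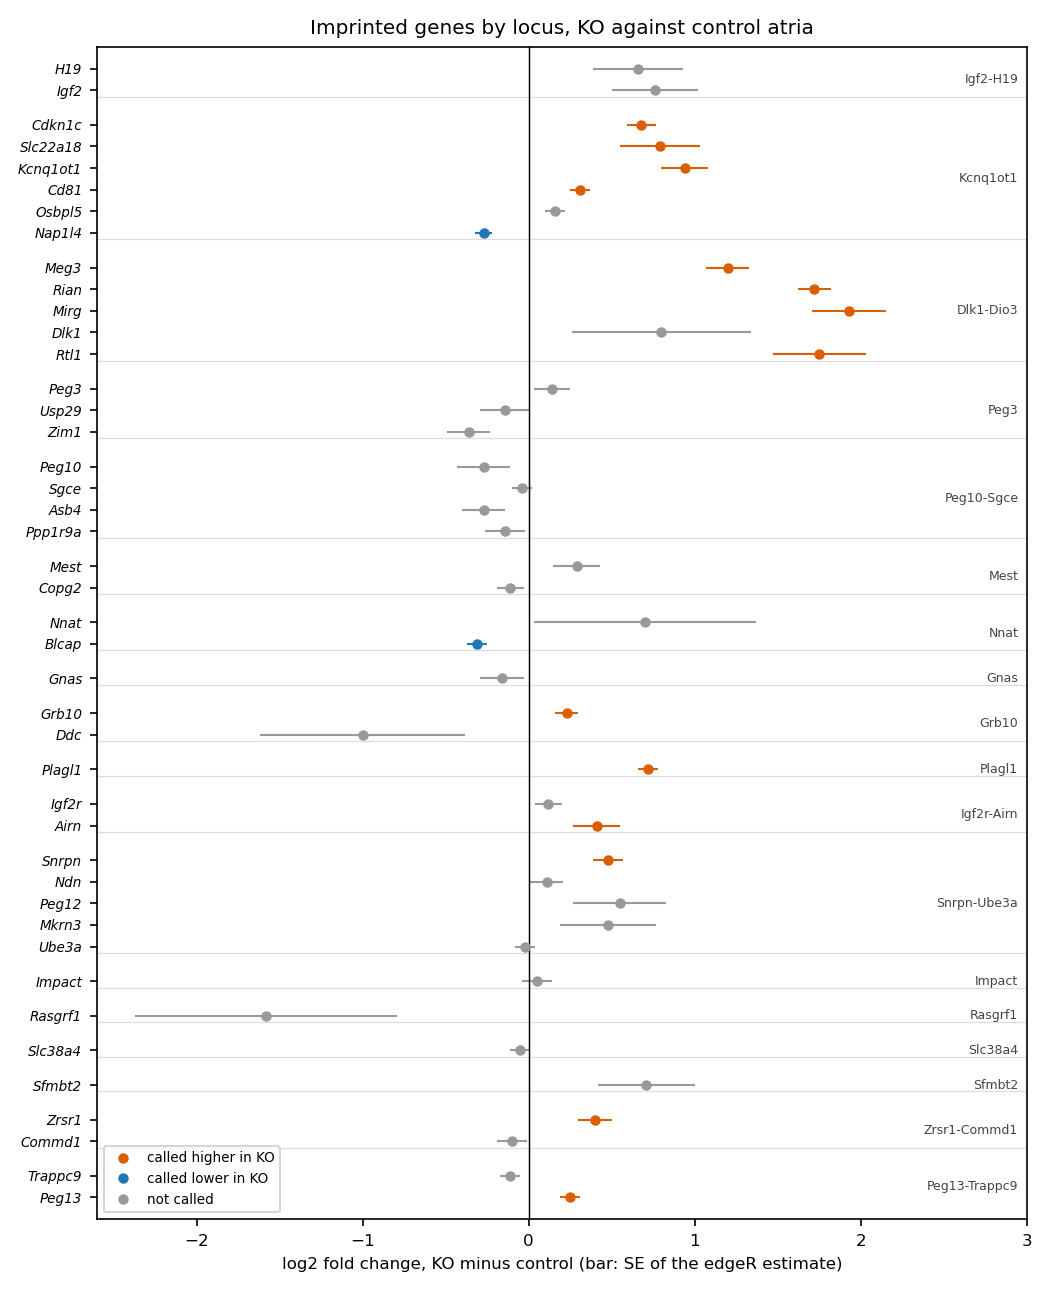
Log2 difference between KO and control (horizontal axis, KO minus control, edgeR, with bars of 1 standard error) for the 43 tested imprinted genes, ordered by locus on the vertical axis; orange marks a gene called higher, blue lower and grey not called. Rian, Mirg, Rtl1 and Meg3 lie at 1.2 to 1.93, Nap1l4 and Blcap are the 2 genes called lower, and the genes of the Peg3, Peg10-Sgce and Mest loci lie between -0.36 and 0.29.

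Cell type markers also differed between the groups in these mixed-cell libraries. Their counts stand beside 14.8% of all genes called higher and 13.1% called lower, and the lists were chosen with earlier results of these data known. Of 8 cardiomyocyte markers 0 were called higher and 7 lower; their summed level was 46576 to 59065 CPM in KO, against 71791 to 79795 CPM in control libraries, so these defining markers of heart muscle were abundant in both groups. Of 10 fibroblast markers 5 were called higher and 1 lower, with sums of 11605 to 13894 CPM in KO, against 11183 to 11862 CPM in control. Of 10 endothelial markers 6 were called higher and 1 lower (2669 to 3049 CPM in KO, 2201 to 2439 CPM in control). Of 8 epicardial markers 6 were called higher and 0 lower (749 to 914 CPM in KO, 544 to 729 CPM in control), and of 10 macrophage markers 6 were called higher and 0 lower (498 to 691 CPM in KO, 422 to 529.6 CPM in control). The endothelial and epicardial sums were higher in every KO library than in any control, the cardiomyocyte sums were lower in every KO library, and the fibroblast and macrophage sums overlapped. Smooth muscle and pericyte markers (4 of 10 higher, 2 lower), neuron and Schwann cell markers (0 of 9 tested higher, 1 lower) and adipocyte markers (0 of 6 tested higher, 1 lower) had sums that overlapped between the groups. The shares called lower in these lists were 20%, 11.1% and 16.7% of the markers tested, beside 13.1% of all genes. Most of the adipocyte sum came from Fabp4 and Plin4. The other fat cell markers but Pparg were high in KO 4 alone: Adipoq was 15.8 CPM there and 0.0545 to 0.383 CPM in the other KO libraries, Plin1 17.1 CPM against 0.0817 to 1.18 CPM, Cidec 16.5 CPM against 0.0248 to 0.737 CPM, Lep 3.79 CPM against 0 to 0.147 CPM, and Retn 3.58 CPM against 0.0272 to 0.0885 CPM. None of these 5 was over 1.12 CPM in a control. Without KO 4, 12 imprinted genes were called higher and 2 lower, beside 2110 and 1877 of all 18433 genes tested. Of the neuronal markers, Chat had 0 counts in KO and 1 in control. Snap25 had 0 counts in KO 2 and in control 2, against 44 to 81 in the other KO libraries and 178 to 189 in the other controls, and Stmn2 was lowest in its group in the same libraries, with 17 counts in KO 2 and 57 in control 2. Fewer cells of a type and less RNA per cell cannot be told apart in such samples, and the part of the cell types in the results below was not tested.

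The Dlk1-Dio3 locus on chromosome 12 held the largest called differences. Its maternal copy is known to be transcribed as a long series of non-coding RNAs, Meg3 (chr12:109541001-109571726, GRCm38, plus strand), Rian (chr12:109603940-109661716), which carries C/D small nucleolar RNAs, and Mirg (chr12:109729764-109749460), which carries microRNAs. The paternal copy is known to express Dlk1, a Notch-like inhibitor of differentiation, Rtl1, a retrotransposon-derived protein needed in placenta and muscle, and Dio3, a deiodinase that inactivates thyroid hormone.

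Rian was 132, 124, 161 and 159 CPM in KO libraries 1 to 4 and 47.4, 39.2, 47.7 and 41.1 CPM in control libraries 1 to 4. Its level rose from 43.8 ± 4.34 to 144 ± 18.8 CPM (SD, n = 4 each), 3.29-fold (log2 difference 1.72 ± 0.10 SE, edgeR adjusted p = 6.3e-07). The lowest KO library was thus far above the highest control.

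Meg3 was 115, 123, 157 and 176 CPM in the KO libraries and 66.6, 64.5, 55.0 and 62.1 CPM in the controls. It rose 2.30-fold, from 62.0 ± 5.07 to 143 ± 28.6 CPM (SD, n = 4; log2 difference 1.2 ± 0.13 SE, edgeR adjusted p = 1.16e-04), again with no overlap between the groups. Mirg was 5.96, 4.57, 6.54 and 9.37 CPM in KO, against 1.69, 1.94, 1.40 and 1.91 CPM in control libraries. It rose 3.8-fold, the largest called fold of the 47 genes (log2 difference 1.93 ± 0.22 SE, edgeR adjusted p = 6.21e-05), and KO 4 was the highest library for both Meg3 and Mirg.

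The fitted folds of Meg3 and Rian were 2.30 and 3.29. The ratio of Meg3 to Rian counts was 0.87, 0.99, 0.97 and 1.1 in KO libraries 1 to 4 and 1.4, 1.65, 1.15 and 1.51 in control libraries, lower in every KO library than in any control. The log2 ratio differed by -0.53 (exact two-sided permutation test, p = 0.0286, the smallest that 4 libraries against 4 allow; adjusted over 7 locus ratios, 0.1, which does not pass 0.05). Per kilobase of exon, Meg3 was at 3.43 and Rian at 2.40 CPM in controls, and they were at 7.88 and 7.90 CPM per kb in KO. Mirg was lower, at 0.238 CPM per kb in control and 0.906 CPM per kb in KO.

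**Figure D2:**
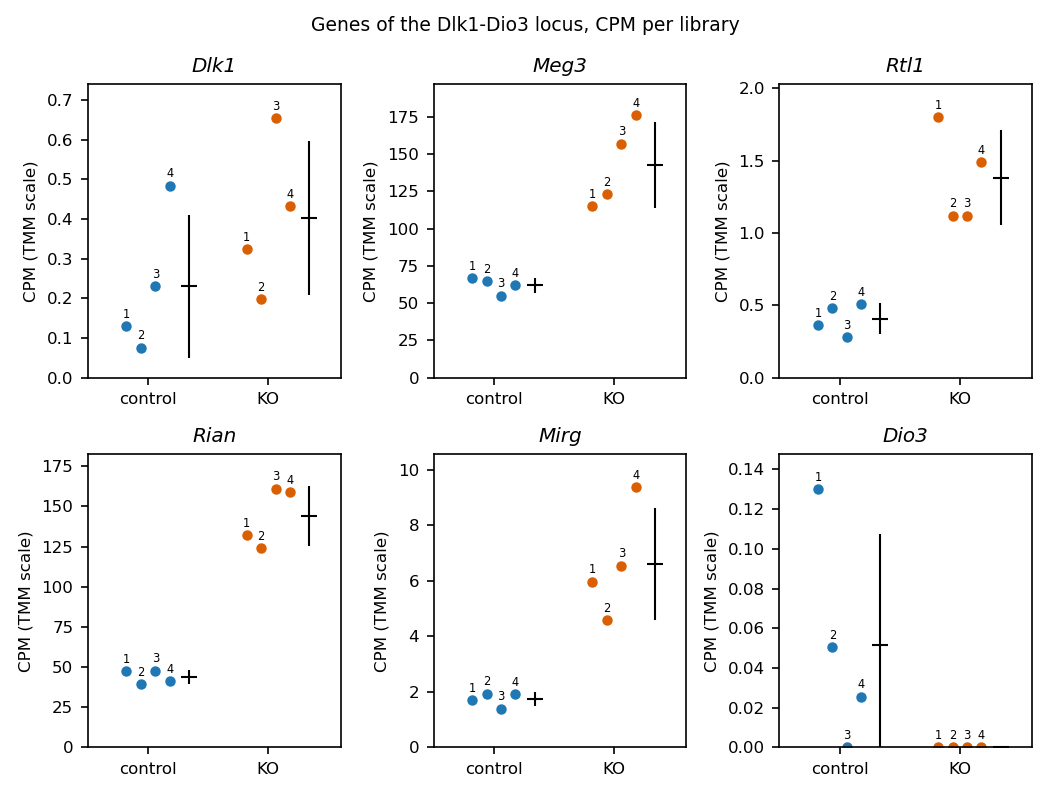
CPM on the TMM scale (vertical axis, from 0) of the Dlk1-Dio3 genes in each of the 4 control and 4 KO libraries; numbers beside points are library numbers and the cross gives the mean and SD. Meg3, Rian, Mirg and Rtl1 show no overlap between groups, Dlk1 overlaps, and Dio3 was counted only in 3 control libraries, where its SD bar stops at the axis.

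Of the 3 non-coding RNAs, Meg3 is the one whose start lies at a known control region of the locus, and its promoter is shown because it is the first of the co-directional transcripts that rose together. In the RefSeq promoter table (GRCm38.p6, 250 bases before to 50 after each start) the window chr12:109540746-109541045, plus strand, holds 1 cyclic AMP response element, TGACGTCA, in capitals, which begins 57 bases before the start.
Meg3 promoter: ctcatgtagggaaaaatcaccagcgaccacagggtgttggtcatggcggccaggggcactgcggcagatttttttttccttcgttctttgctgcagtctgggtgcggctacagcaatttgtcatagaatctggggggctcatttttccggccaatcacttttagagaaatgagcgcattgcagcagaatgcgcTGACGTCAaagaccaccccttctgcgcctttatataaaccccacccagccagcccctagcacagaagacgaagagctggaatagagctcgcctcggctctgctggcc
This element, searched on both strands, is in 1.79% of 32851 promoters of that length (588). It is in 3 of the 60 windows found for 38 of the imprinted genes, and 2 of those are the Peg3 and Usp29 windows, which share a single site at chr7:6730590-6730597. The T-box core GGTGTGA, also searched on both strands, is in 3.98% of all windows and in 4 of the 60, among them a second Meg3 window (chr12:109545148-109545447) with 2 matches. The core of the CTCF motif is in 0.04% of all windows and in 0 of the 60. A match is a description of these letters only, and the windows of Rian and Mirg hold none of the 3 motifs.

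Rtl1 (chr12:109589193-109600330) lies between Meg3 and Rian on the opposite strand. It had 61, 45, 41 and 55 counts in KO and 14, 19, 11 and 20 counts in control libraries, or 1.80, 1.12, 1.12 and 1.49 CPM against 0.364, 0.479, 0.281 and 0.509 CPM. Every KO library was above every control, and the level was 3.35-fold higher (log2 difference 1.75 ± 0.28 SE, edgeR adjusted p = 8.04e-04). The exons of Rtl1 are known to be transcribed in the other direction from the maternal copy, and microRNAs cut from that antisense RNA are known to cleave Rtl1 RNA. Whether the deposited counts use strand is not given in the sources used here, so Rtl1 and its antisense RNA cannot be told apart, and the value is one of the interval rather than of Rtl1 itself.

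The RefSeq microRNA table places 6 microRNA genes on the strand opposite Rtl1 within its exons. One mature sequence of each is given because these are the RNAs that distinguish the antisense transcript from Rtl1, with the seed, bases 2 to 8 from the 5′ end, in capitals.
miR-431-5p: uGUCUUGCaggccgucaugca
miR-433-3p: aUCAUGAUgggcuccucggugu
miR-127-3p: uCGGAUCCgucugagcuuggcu
miR-434-3p: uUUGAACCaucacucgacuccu
miR-432: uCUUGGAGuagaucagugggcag
miR-136-5p: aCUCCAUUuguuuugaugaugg
These 6 have different seeds. Mature microRNAs are too short and lack the tail for this library type and were not measured here; only the long RNAs that span their genes were counted.

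From the start of Meg3 to the end of Mirg the table holds 105 mature microRNAs from 57 genes on the strand of Meg3. Mirg spans 14 of those genes (26 mature microRNAs), Rian 3 (6) and Meg3 2 (3), the 6 antisense to Rtl1 give 11, and 59 of the 105 lie outside every gene of the list, in the stretches between them. The 105 have 97 different seeds, and 8 seeds are shared by more than 1 microRNA. Pairs that share a seed are shown for 3 of those seeds because microRNAs with 1 seed are known to bind largely the same targets.
miR-379-5p: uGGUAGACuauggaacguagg
miR-1193-5p: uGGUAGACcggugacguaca
miR-379-3p: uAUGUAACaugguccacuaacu
miR-411-3p: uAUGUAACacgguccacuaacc
miR-376c-5p: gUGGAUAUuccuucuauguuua
miR-376b-5p: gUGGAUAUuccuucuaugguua
Counted position by position from the 5′ end over the shorter of the pair, miR-376c-5p and miR-376b-5p match at 21 of 22 bases, miR-379-3p and miR-411-3p at 20 of 22, and miR-379-5p and miR-1193-5p at 10 of 20.

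**Figure D3:**
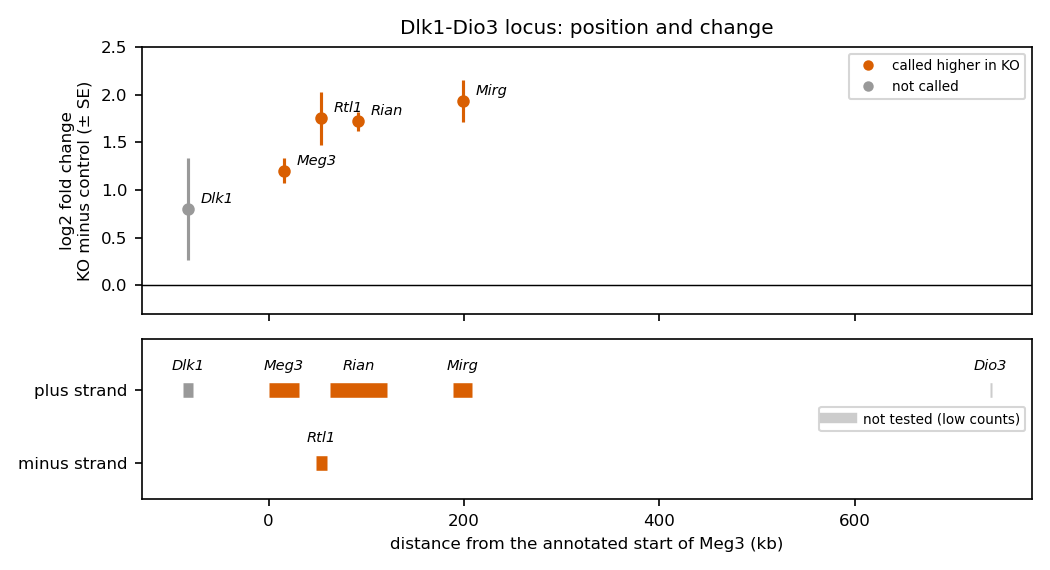
Map of the Dlk1-Dio3 locus, with distance from the start of Meg3 in kilobases on the horizontal axis, genes drawn to scale on the plus or the minus strand, and the log2 difference between KO and control of each tested gene. The 4 genes called higher, Meg3, Rian, Mirg and Rtl1 (the last of which cannot be told apart from its antisense RNA), lie in a row from the start of Meg3 to the end of Mirg, while Dlk1, 88.2 kb before the start of Meg3, was not called.

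The other genes known for the paternal copy of this locus were barely present. Dlk1 was 0.324, 0.198, 0.654 and 0.433 CPM in KO, against 0.130, 0.0756, 0.230 and 0.484 CPM in control libraries, and was not called (log2 difference 0.80 ± 0.54 SE, edgeR adjusted p = 0.303). The groups overlapped, and 59 counts in KO and 36 in control stand behind that value. Dio3 had 0 counts in KO and 8 in control, 5 of them in control 1, and was below the filter. A Dio3 difference was not detectable at this depth. The ratio of Meg3 to Dlk1 gave a log2 difference of 0.23 (exact permutation p = 0.714), and its direction changed with the control libraries used, -0.67 against controls 1 and 2 alone and 1.13 against controls 3 and 4 alone. Of the 5 other genes tested in the locus or within 250 kb of it, 0 were higher and 1 was lower (all genes, 14.8% and 13.1%). The lower one, Gm19605, lies beyond Dio3. DQ267102, a small nucleolar RNA within Rian, had 52 counts in KO and 23 in control. It was not called (log2 difference 1.23 ± 0.47 SE, edgeR adjusted p = 0.0718).

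The Kcnq1ot1 locus on chromosome 7 held 5 called genes, 4 higher and 1 lower. Kcnq1ot1 (chr7:143203458-143296549) is a long non-coding RNA made from the paternal copy, antisense to Kcnq1, the gene of a cardiac potassium channel subunit, and it is known to silence genes on both sides. Cdkn1c (chr7:143458339-143461050), an inhibitor of cyclin-dependent kinases, Phlda2 and the transporter gene Slc22a18 are known for expression from the maternal copy.

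Kcnq1ot1 was 34.7, 29.9, 29.9 and 34.8 CPM in KO libraries and 17.9, 21.3, 13.1 and 14.8 CPM in controls, with no overlap. It rose 1.92-fold, from 16.8 ± 3.61 to 32.3 ± 2.78 CPM (SD, n = 4; log2 difference 0.94 ± 0.14 SE, edgeR adjusted p = 4.72e-04). It is annotated as 1 exon of 93.09 kb, so reads of unspliced Kcnq1 could fall in it if strand was not used, and 121 of its bases are Kcnq1 exon on the opposite strand. Kcnq1 itself, which is not in the list, had 43.2, 32.9, 34.6 and 29.2 CPM in KO, against 62.5, 55.7, 76.9 and 73.3 CPM in control libraries, the opposite direction. It fell 1.92-fold (log2 difference -0.94, edgeR adjusted p = 0.000558).

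Cdkn1c, which the RNA is known to silence in cis, was 47.8, 51.5, 60.9 and 45.0 CPM in KO libraries and 31.1, 33.3, 32.0 and 32.0 CPM in controls. It rose 1.6-fold, from 32.1 ± 0.927 to 51.3 ± 6.92 CPM (SD, n = 4; log2 difference 0.68 ± 0.09 SE, edgeR adjusted p = 1.31e-04). Of the Cdkn1c exon bases, 30.7% lie opposite exons of the annotated gene Gm44732, so its level may depend on whether strand was used. Kcnq1ot1 and Cdkn1c were therefore both higher in the same 4 libraries. Their count ratio was 1.38, 1.72, 2.04 and 1.3 in KO and 1.74, 1.56, 2.44 and 2.15 in control libraries, overlapping, with a log2 difference of -0.30 (exact permutation p = 0.2, adjusted 0.3). No difference in that ratio was detectable with 4 libraries a group.

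Slc22a18 was 1.5, 2.03, 1.55 and 1.46 CPM in KO, against 1.27, 0.731, 1.05 and 0.738 CPM in control libraries. It was called higher at 1.73-fold (log2 difference 0.79 ± 0.24 SE, edgeR adjusted p = 0.03), and the call was lost in 8 of 20 alternative analyses, among them without KO 2 (adjusted p = 0.0955), without KO 3 (0.0553), without control 2 (0.0666) or without control 4 (0.0866). Phlda2, a placental growth regulator, had 0 counts in every library.

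Cd81, a tetraspanin, Nap1l4, a histone chaperone, and Osbpl5, a sterol-binding protein, lie further out and are known to be imprinted in placenta. Cd81 was 411, 377, 366 and 386 CPM in KO, against 304, 296, 332 and 313 CPM in control libraries and rose 1.24-fold (log2 difference 0.31 ± 0.06 SE, edgeR adjusted p = 0.00285); against controls 3 and 4 alone the adjusted p was 0.0626. Nap1l4 went the other way, at 184, 177, 172 and 171 CPM in KO, against 213, 212, 214 and 211 CPM in control libraries. It fell 1.21-fold (log2 difference -0.27 ± 0.05 SE, edgeR adjusted p = 0.00171), with all control libraries between 211 and 214 CPM. Osbpl5 was 59.5 ± 3.90 CPM in KO, against 53.4 ± 2.38 CPM in control (SD, n = 4). All of its KO libraries lay above the controls, and it was not called (log2 difference 0.16, edgeR adjusted p = 0.0809).

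**Figure D4:**
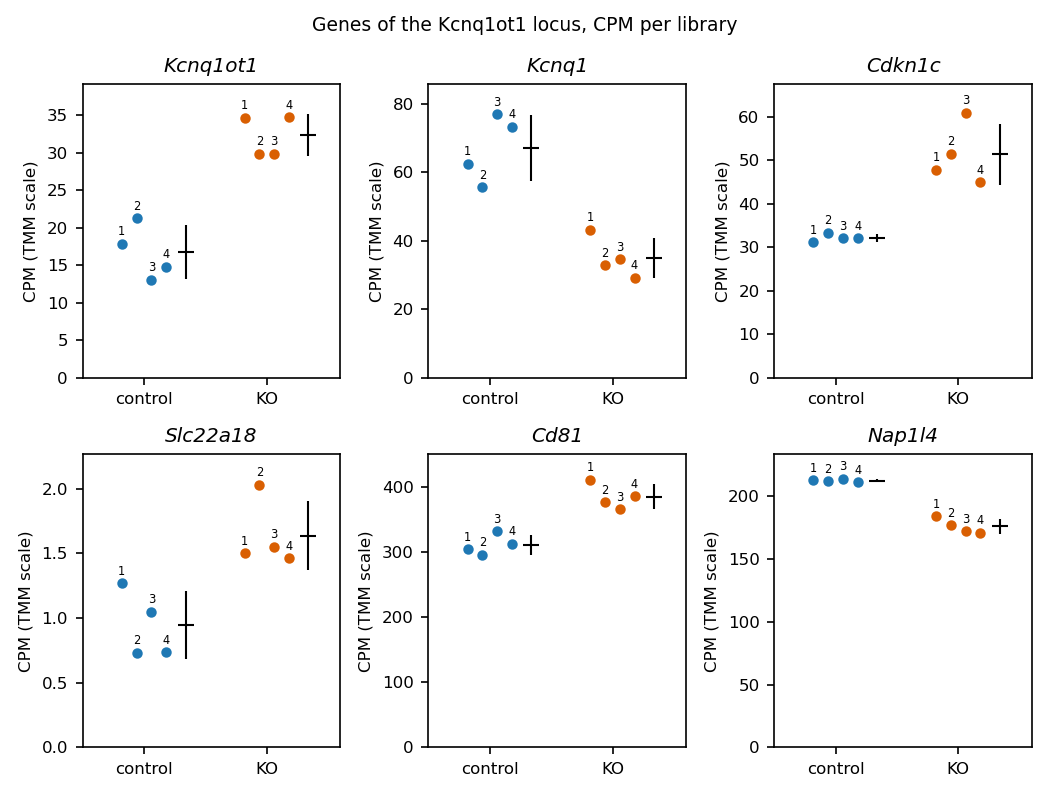
CPM on the TMM scale (vertical axes, from 0) of 5 genes of the Kcnq1ot1 locus and of Kcnq1 in each control and KO library; numbers are library numbers and the cross gives the mean and SD. Kcnq1ot1, Cdkn1c, Slc22a18 and Cd81 are higher in every KO library than in any control, and Kcnq1 and Nap1l4 are lower.

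H19 and Igf2, which form a separate domain on chromosome 7, spread widely among the KO libraries. H19 (chr7:142575529-142578143), a non-coding RNA of the maternal copy and the host of miR-675, was 542, 1124, 1327 and 1222 CPM in KO libraries 1 to 4 and 570.4, 739.5, 766 and 589.8 CPM in controls. Igf2 (chr7:142650766-142666816), a fetal growth factor of the paternal copy, was 41.9, 71.5, 97.8 and 92.1 CPM in KO, against 41.1, 49.1, 48.9 and 39.5 CPM in controls. KO 1 was within the control range for Igf2 and below every control for H19, while KO 2, 3 and 4 were above every control for both genes. Neither was called: the log2 difference was 0.66 ± 0.27 SE for H19 (edgeR adjusted p = 0.116) and 0.76 ± 0.26 SE for Igf2 (edgeR adjusted p = 0.064). Without KO 1 the differences were 0.87 (edgeR adjusted p = 0.000293) and 0.96 (0.000337). KO 1 was singled out after the data were seen, as the lowest KO library for both genes, so this is not a separate test. Its library name prefix is shared by no other library. DESeq2 gave adjusted p of 0.0488 and 0.0255 with all 8 libraries, and edgeR gave 0.0499 for Igf2 when only genes averaging 1 CPM or more were kept.

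The mature products of the microRNA gene in H19 are shown because H19 is the most abundant of the 47 genes.
miR-675-5p: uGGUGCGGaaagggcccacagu
miR-675-3p: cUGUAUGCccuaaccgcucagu
Of the Igf2 exon bases, 62.8% are shared on the same strand with the annotated gene Gm49394, and how the counting treated such reads is not given, which limits the level of Igf2 and its ratio to H19. The ratio of H19 to Igf2 counts was 12.9, 15.7, 13.6 and 13.3 in KO and 13.9, 15.1, 15.7 and 14.9 in control libraries, overlapping, with a log2 difference of -0.10 (exact permutation p = 0.229, adjusted 0.3). H19 and Igf2 are known to share enhancers, and each is known for expression from a different parental copy. In these libraries KO 1 was the lowest KO library for both.

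Plagl1 (chr10:13060504-13131694), a zinc finger transcription factor of the paternal copy, had the lowest p-value outside the Dlk1-Dio3 locus. It was 155, 163, 168 and 169 CPM in KO, against 105, 104, 99.5 and 89.3 CPM in control libraries. It rose 1.65-fold, from 99.4 ± 7.12 to 164 ± 6.44 CPM (SD, n = 4; log2 difference 0.72 ± 0.06 SE, edgeR adjusted p = 8.63e-06). The groups were well apart, and KO 1, which was low for H19 and Igf2, was close to the other KO libraries here.

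In the Snrpn-Ube3a locus on chromosome 7, Snrpn (chr7:59982495-60140219), which encodes a small ribonucleoprotein of the spliceosome and is known for the paternal copy, was 73.9, 67.2, 74.9 and 64.0 CPM in KO, against 44.6, 47.6, 60.6 and 48.4 CPM in control libraries. It rose 1.39-fold, from 50.3 ± 7.05 to 70.0 ± 5.28 CPM (SD, n = 4; log2 difference 0.48 ± 0.09 SE, edgeR adjusted p = 0.00275), with control 3 closest to the KO libraries. Of the Snrpn exon bases, 27.3% are shared on the same strand with the annotated gene Gm38393. How the counting treated such reads is not given, which limits the level of Snrpn. Snhg14, the long host RNA downstream of Snrpn that is known to silence Ube3a in neurons, is not in the list. It was 20.4, 21.1, 20.6 and 19.5 CPM in KO, against 11.8, 13.9, 11.5 and 13.2 CPM in control libraries, a 1.62-fold rise (log2 difference 0.69, edgeR adjusted p = 7.97e-05). Ube3a, a ubiquitin ligase imprinted in neurons, was 83.7, 81, 73.1 and 74.6 CPM in KO, against 81.5, 80.6, 78.3 and 75.2 CPM in controls and was not called (log2 difference -0.02 ± 0.06 SE, edgeR adjusted p = 0.876). The groups overlapped almost wholly. Ube3a exons share 1803 bases (8.7%) with those of Snhg14 on the opposite strand, so both levels may depend on whether strand was used.

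The remaining genes of that locus, all of the paternal copy, were not called or not tested. Ndn, a growth suppressor of the MAGE family, was 29.7 ± 3.55 CPM in KO, against 27.6 ± 3.31 CPM in control (log2 difference 0.11). Peg12 and Mkrn3, the second a zinc finger protein, were at most 2.33 CPM in any library (log2 differences 0.55 and 0.48, edgeR adjusted p = 0.171 and 0.238). Magel2 had 0 counts in KO and 2 in control. Snurf had 0 counts, and all of its 0.22 kb of exon lies within Snrpn exons on the same strand, so a counter that leaves out reads shared by 2 genes would give 0; which counter was used is not given in the sources used here.

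**Figure D5:**
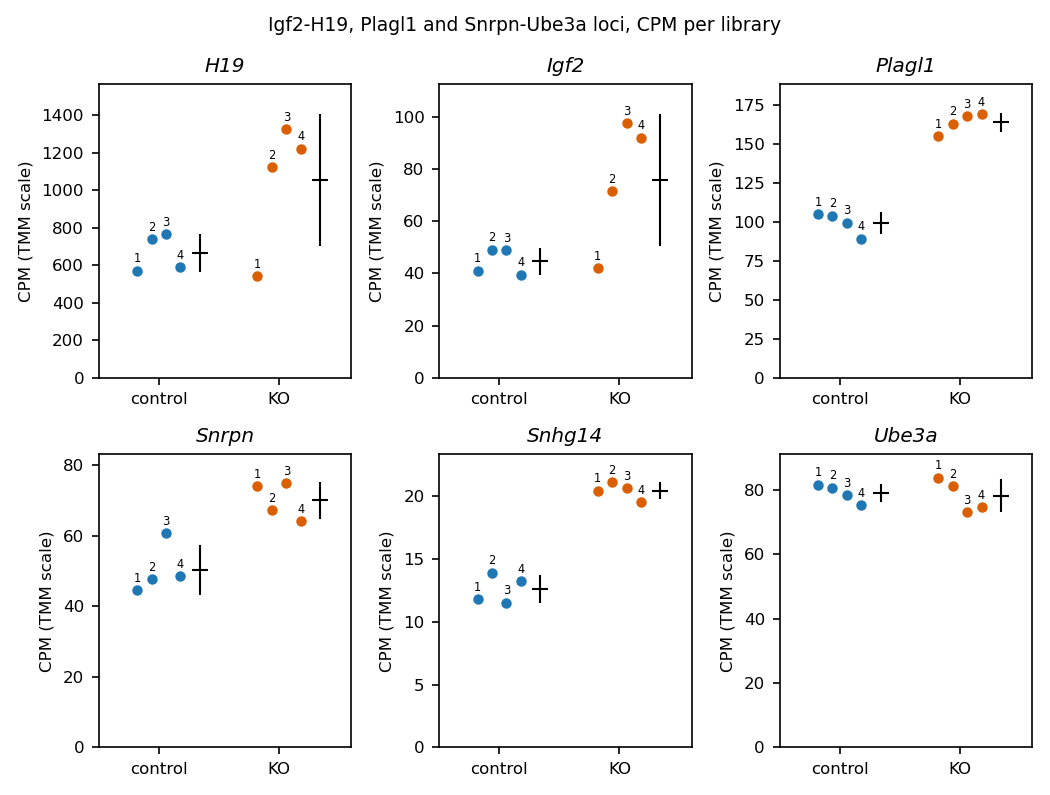
CPM on the TMM scale (vertical axes, from 0) of H19, Igf2, Plagl1, Snrpn, Snhg14 and Ube3a in each control and KO library; numbers are library numbers and the cross gives the mean and SD. For H19 and Igf2, KO 1 sits with the controls and KO 2 to 4 above them, Plagl1, Snrpn and Snhg14 are higher in every KO library, and Ube3a overlaps.

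Smaller called differences were found in 5 further loci. Blcap (chr2:157556362-157571274), imprinted in brain, was 39.4, 42.6, 42.1 and 43.5 CPM in KO, against 52.1, 48.9, 54.1 and 53.1 CPM in control libraries, and fell 1.24-fold (log2 difference -0.31 ± 0.06 SE, edgeR adjusted p = 0.00164) with no overlap. Nnat, a proteolipid gene of the paternal copy that lies inside Blcap, was 3.51, 3.35, 4.88 and 21.1 CPM in KO, against 6.37, 3.68, 4.26 and 5.91 CPM in controls. Its difference was 0.70 (edgeR adjusted p = 0.49) with KO 4 and -0.37 without it. KO 4 is the library in which fat cell markers were high (Adipoq 15.8 CPM, Plin1 17.1 CPM, Cidec 16.5 CPM), and their part in the Nnat value was not tested.

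Zrsr1 (chr11:22972005-22976496), a splicing factor retrogene within Commd1, was 44.1, 44.5, 50.7 and 43.3 CPM in KO, against 30.0, 41.4, 35.7 and 31.3 CPM in control libraries. It rose 1.32-fold (log2 difference 0.40 ± 0.10 SE, edgeR adjusted p = 0.0102; 0.0912 against controls 1 and 2 alone). Its exons share 412 bases with those of Commd1 on the other strand. Reads of Commd1 could be counted in Zrsr1 if strand was not used. Commd1, imprinted in brain, was 15.6 ± 1.31 CPM in KO, against 16.8 ± 1.6 CPM in control and was not called.

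Peg13 (chr15:72805600-72810324), a non-coding RNA of the paternal copy in an intron of Trappc9, was 80.4, 81.5, 88.1 and 85.5 CPM in KO, against 68.7, 77.5, 66.7 and 70.1 CPM in controls. It rose 1.19-fold (log2 difference 0.25 ± 0.06 SE, edgeR adjusted p = 0.0103; 0.129 against controls 1 and 2 alone), and control 2 was closest to the KO libraries. Trappc9, a vesicle transport gene imprinted in brain, was 41.2 ± 1.92 CPM in KO, against 44.4 ± 2.93 CPM in control and was not called. Both genes are on the minus strand, so reads of unspliced Trappc9 could fall in Peg13 whatever the strand setting.

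Grb10 (chr11:11930508-12038683), an adaptor that dampens insulin and growth factor receptors, was 109.9, 104, 115 and 127 CPM in KO, against 97.7, 106, 89.8 and 97.3 CPM in control libraries. The groups overlapped by control 2 over KO 2, and the 1.17-fold rise (log2 difference 0.23 ± 0.07 SE, edgeR adjusted p = 0.0359) was lost in 9 of 20 alternatives, with adjusted p up to 0.289. Single libraries whose absence ended the call were KO 3 (adjusted p = 0.0791), KO 4 (0.104), control 1 (0.0803), control 3 (0.0928) and control 4 (0.0836). Its neighbour Ddc, which makes dopamine and serotonin, was below 1 CPM in all libraries but control 1 (2.16 CPM) and was not called (log2 difference -1 ± 0.62 SE, edgeR adjusted p = 0.262).

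Airn (chr17:12741311-12860136), the paternal non-coding RNA that is known to silence Igf2r in cis, was 27.8, 31.8, 31.2 and 39.2 CPM in KO, against 28.7, 26.8, 19 and 23.3 CPM in control libraries. It was called 1.33-fold higher (log2 difference 0.41 ± 0.14 SE, edgeR adjusted p = 0.0461), with KO 1 below control 1. The call was lost in 12 of 20 alternatives, with adjusted p up to 0.3. Those included leaving out KO 2 (edgeR adjusted p = 0.0835), KO 3 (0.0755), KO 4 (0.117), control 2 (0.0526), control 3 (0.0788) or control 4 (0.114). Igf2r, the receptor that clears IGF2, was 358 ± 36.3 CPM in KO, against 330 ± 17.3 CPM in control and was not called (log2 difference 0.12, edgeR adjusted p = 0.279). Their ratio overlapped between the groups (log2 difference -0.30, exact permutation p = 0.114, adjusted 0.266). Airn starts inside Igf2r on the opposite strand. Reads of unspliced Igf2r could fall in Airn if strand was not used, which limits its level and this ratio.

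The loci not named so far held no called gene. In the Peg3 locus Peg3, a zinc finger protein known to act in growth and maternal behaviour, was 264, 355, 353 and 338 CPM in KO, against 290.5, 349.9, 250.1 and 301 CPM in controls (log2 difference 0.14 ± 0.11 SE, edgeR adjusted p = 0.415). Zim1, the zinc finger gene of the maternal copy beside it, was 9.16 ± 0.938 CPM in KO, against 11.8 ± 1.98 CPM in control (log2 difference -0.36, edgeR adjusted p = 0.0623; 0.00714 without control 3, and 0.0364 with DESeq2). The ratio of Peg3 to Zim1 was 29.5, 43.5, 38.4 and 32.4 in KO and 21.8, 28.2, 28.2 and 24.2 in control libraries. It was higher in every KO library (log2 difference 0.48, exact permutation p = 0.0286, the smallest possible; adjusted over 7 ratios, 0.1). Usp29, a deubiquitinase gene that shares the Peg3 promoter region, had a log2 difference of -0.14.

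The genes of the Peg10-Sgce locus had log2 differences of -0.27 (Peg10), -0.04 (Sgce), -0.27 (Asb4) and -0.14 (Ppp1r9a). In the Mest locus, Mest, an enzyme of the hydrolase fold and marker of growing fat, was 32.5 ± 2.72 CPM in KO, against 26.5 ± 5.94 CPM in control (log2 difference 0.29, edgeR adjusted p = 0.144). The 34.5 CPM of control 4 lay in the KO range, and without it the difference was 0.44 (edgeR adjusted p = 0.011); against controls 1 and 2 alone it was 0.54 (0.00391). Copg2 beside it had a difference of -0.11. The exons of Mest and Copg2 share 912 bases on opposite strands, 23.1% of those of Mest. Reads of either could be counted in the other if strand was not used.

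Gnas, which encodes the stimulatory G protein alpha subunit (log2 difference -0.16), Impact, a regulator of translation (0.05), and Slc38a4, an amino acid transporter (-0.05), were not called. Sfmbt2, a Polycomb-related gene, was 1.39, 2.80, 3.30 and 2.47 CPM in KO, against 1.01, 1.36, 2.12 and 1.6 CPM in control libraries (log2 difference 0.71, edgeR adjusted p = 0.0882; 0.0182 without KO 1 and 0.0434 without control 3). Rasgrf1, a Ras activator, was 0.678, 0.0496, 0.681 and 0.677 CPM in KO, against 1.98, 0.151, 2.14 and 1.94 CPM in controls. KO 2 and control 2, the 2 libraries that stood apart on the second principal component, were lower than all others for Rasgrf1. The neuronal markers Snap25 (0 counts in both) and Stmn2 (0.422 CPM in KO 2 and 1.44 CPM in control 2, the lowest of each group) were low in the same libraries, and their part in the Rasgrf1 value was not tested. Among the other 6 libraries the groups did not overlap, and without KO 2 and control 2, an exclusion chosen after the data were seen, the log2 difference was -1.57 (edgeR adjusted p = 0.000854) against -1.58 (0.178) with all 8. The log2 difference was -1.96 without control 2 (edgeR adjusted p = 0.0185) and -2 against controls 3 and 4 alone (0.0488). Both of these also drop control 2, so they repeat part of that exclusion and are not separate tests.

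The levels of the 47 genes ranged widely. Per kilobase of exon in controls, H19 was the highest at 271 CPM, followed by Cd81 at 108, Nap1l4 at 68.7, Igf2r at 35.5, Snrpn at 23.3 and Peg3 at 22.4 CPM per kb, and 2 genes, Phlda2 and Snurf, had no count. Together the 47 took 0.316% to 0.44% of all counts in KO and 0.279% to 0.311% in control libraries. Their share in KO 1, the lowest of the KO libraries, was above that of every control. H19 alone made up 17.1% to 31.3% of these counts, and without it the share was 0.262% to 0.302% in KO and 0.222% to 0.238% in control libraries, still without overlap.

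Genes that lie near the imprinted genes but are not in the list gave a comparison, although some of them are imprinted too. Within 250 kb of a gene of the list or between 2 of them, 112 further genes were tested, of which 18 were higher (16.1%; all genes, 14.8%), 20 lower (17.9%; all genes, 13.1%) and 74 not called, with a median log2 difference of 0.01. Of the 112, 10 are in the list of other imprinted genes described next (3 higher, 3 lower), among them Kcnq1, Slc22a3, Snhg14, Pon2 and Pon3; the remaining 102 held 15 higher (14.7%) and 17 lower (16.7%), with a median of 0.02. Beside Igf2 and H19, Tnni2, a fast skeletal troponin I, rose 5.62-fold, from 72.9 ± 7.31 to 410.1 ± 93.2 CPM, and Mrpl23, a mitochondrial ribosomal protein gene, fell 2.10-fold. Shank2 (chr7:144001928-144424494), a synaptic scaffold, fell 5.02-fold, from 14.3 ± 3.71 to 2.84 ± 0.309 CPM. It lies at the outer edge of the Kcnq1ot1 locus, within 250 kb of Osbpl5, and not beside Kcnq1ot1 itself. Beside Rasgrf1, Adamts7, a metalloproteinase, fell 2.06-fold, while Itih5 and Itih2, matrix-stabilising inhibitor chains near Sfmbt2, rose 1.88-fold and 1.82-fold. The neighbours named here are the called genes with the largest differences, up to 2 per locus. Each has a curated symbol and a mean of at least 1 CPM, and further called neighbours are not named. The others chosen in this way were Zfp773 (log2 difference 0.82), Pon2, a lactonase (0.46), Src, a tyrosine kinase (0.41), Atp5e, an ATP synthase subunit (-0.54), Ctsz, a cathepsin (0.35), Ikzf1, a lymphoid transcription factor (0.91), Stx11 (-0.67), Utrn, utrophin (-0.36), Mrgprh (-0.73), Osbpl1a (-0.37), Ctsh, a cathepsin (0.46), Amigo2 (-0.19), B3gnt2 (-0.53) and Cct4 (-0.17). Amigo2 lost its call in 14 of 20 alternatives, and B3gnt2 and Cct4 lost theirs in 11. These included leaving out 1 library and changes of scaling, filter or controls. Zfp773 lost its call without KO 3 (edgeR adjusted p = 0.0831), control 1 (0.0687) or control 4 (0.0709). Src, Ikzf1 and Mrgprh lost theirs against 1 of the pairs of controls alone.

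A further list held 35 other imprinted genes, of which 33 were in the table: 8 were higher, 4 lower, 11 not called and 10 not tested. The 8 are 34.8% of the 23 tested and the 4 are 17.4% (all genes, 14.8% and 13.1%), and the median log2 difference was 0.37. Dcn, 1 of the 8, is also among the fibroblast markers called higher. The list was not divided by the tissue in which a gene is imprinted. Like the lists below, it was chosen with earlier results of these data known. Slc22a3, an organic cation transporter beside Igf2r, was 3.07, 2.98, 2.70 and 3.41 CPM in KO, against 8.40, 10.5, 9.80 and 7.64 CPM in control libraries, a 2.99-fold fall (edgeR adjusted p = 8.29e-06). Nap1l5, a retrogene of the paternal copy, was 19.1, 24.2, 30.9 and 32.1 CPM in KO, against 8.97, 9.38, 9.01 and 8.40 CPM in control libraries, a 2.97-fold rise (edgeR adjusted p = 2.24e-05). Pon3, a lactonase in the Peg10-Sgce region, rose 1.77-fold, from 30.2 ± 3.54 to 53.5 ± 2.06 CPM (edgeR adjusted p = 1.99e-05). These genes moved in both directions.

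Of 26 genes that maintain or erase imprints, 2 were higher, 1 was lower, 21 were not called and 2 were not tested. These are 8.33% higher and 4.17% lower of the 24 tested (all genes, 14.8% and 13.1%), with a median log2 difference of 0.04. Zfp57, which protects methylated imprint regions, was 17.3, 16.7, 17.3 and 18.7 CPM in KO, against 11.0, 12.4, 9.67 and 13.2 CPM in control libraries and rose 1.51-fold (edgeR adjusted p = 0.00102). Tet1, which oxidises methylated cytosine, was 20, 24.6, 20.2 and 20.6 CPM in KO, against 31.7, 26.2, 31.9 and 34.3 CPM in control libraries and fell 1.45-fold (edgeR adjusted p = 0.00142). Uhrf1, which brings the maintenance methyltransferase to newly copied DNA, rose 1.87-fold (edgeR adjusted p = 0.023), a call lost in 6 of 20 alternatives, among them without KO 1 (0.0509), KO 2 (0.0614) or control 1 (0.0512).

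Of 18 genes of insulin-like growth factor signalling, 6 were higher, 1 was lower, 10 were not called and 1 was not tested. These are 35.3% higher and 5.88% lower of the 17 tested (all genes, 14.8% and 13.1%), with a median log2 difference of 0.25. This list too was chosen with earlier results of these data known. Igfals, the acid-labile subunit that holds the factors in the circulation, was 3.42, 2.63, 2.29 and 3.09 CPM in KO, against 0.182, 0.176, 0.230 and 0.0764 CPM in control libraries, a 16.9-fold rise (edgeR adjusted p = 1.98e-06). Igfbp2, a binding protein, rose 6.25-fold from 0.166 to 1.06 CPM (log2 difference 2.64, edgeR adjusted p = 0.00214). Its control counts were 4, 3, 6 and 13, and the log2 difference ran from 2.08 against controls 3 and 4 alone to 3.49 against controls 1 and 2 alone, and was 3.21 without control 4. Igf2bp3, a fetal RNA-binding protein that binds Igf2 RNA, rose 2.05-fold (edgeR adjusted p = 0.00359), and Akt1, the kinase downstream of the receptors, fell 1.39-fold (edgeR adjusted p = 0.00223).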

How the data were processed

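The authors deposited 1 table of raw counts per gene for all 8 libraries. The submitters' processing notes name STAR, DESeq2 and the build mm10; the sources used here do not give the counting program, its strand setting or the annotation release. Each column's name ties it to 1 library.

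Of 54532 genes, 33437 had a count. Genes passing the filter of edgeR 4.0.16 (R 4.3.3; minimum count 10, minimum total 15), 18033 in all, were scaled by TMM and fitted together with robust quasi-likelihood, KO against control, and called at a Benjamini-Hochberg adjusted p under 0.05. CPM are on the TMM scale. Ratios of 2 genes of a locus used counts plus 0.5 and an exact two-sided permutation test over libraries. Gene positions, exon lengths and overlaps came from GENCODE M21 (GRCm38), which holds 54495 of the IDs; promoters and microRNAs came from RefSeq GRCm38.p6, and 38 of the 47 genes had a promoter there. The fit was tested on simulated data. Replicates of a group differed by more than sampling noise (chi-square divided by its degrees of freedom, 11.2 to 28.2).

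Full values are given for every called gene of the list and its partners in a locus, for up to 4 called genes with the smallest p of other lists, and for up to 2 called neighbours per locus with a curated symbol and a mean of at least 1 CPM. The genes and lists were chosen with earlier results of these data known. Alternatives were other scalings, DESeq2 1.42.0, limma 3.58.1 (voom), other filters, a replicate block, a Y-linked covariate, either pair of controls alone and leaving out each library. For genes that were not called, single alternatives are named mainly because they changed the call or the sign.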

Additional observations from a re-analysis of the deposited data

Results flagged for a closer look

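In 8 cases, out of 86 groups of 4 libraries over 43 genes and 14 over the locus ratios, 1 library lay further from the rest than Dixon's critical value for 4 libraries allows; chance alone gives about 1 in 20 such groups. For Rasgrf1 both groups held such a library: KO 2 had 0.0496 CPM where the other KO libraries had 0.677 to 0.681, and control 2 had 0.151 CPM where the other controls had 1.94 to 2.14. Nnat was 21.1 CPM in KO 4 and 3.35 to 4.88 in the other KO libraries. Ddc was 2.16 CPM in control 1 and 0.383 to 0.63 in the other controls. Slc22a18 was 2.03 CPM in KO 2 and 1.46 to 1.55 in the others. Zrsr1 was 50.7 CPM in KO 3 and 43.3 to 44.5 in the others. Peg10 was 1.85 CPM in KO 3 and 2.08 to 2.12 in the others, and Osbpl5 was 49.8 CPM in control 2 and 54.4 to 54.8 in the other controls. H19 and Igf2 in KO 1, low as they were, did not pass this criterion.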

How the results depend on the processing

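Over 20 alternatives the number of imprinted genes called higher ran from 10 to 17 (14 as reported) and lower from 2 to 3 (2 as reported). Over all genes, calls ran from 1700 to 3696 higher and from 1580 to 2723 lower (2677 and 2355 as reported). The 10 were found against controls 1 and 2 alone, where 1843 of 18783 genes were higher. The 17 were found without KO 1, where 2687 of 18457 genes were higher. Leaving out 1 library gave 11 to 17 higher and 2 to 3 lower. Cdkn1c, Kcnq1ot1, Nap1l4, Meg3, Rian, Mirg, Blcap, Plagl1 and Snrpn kept their call in all 20, and Rtl1 in the 19 that tested it. DESeq2 gave 16 higher and 3 lower and limma-voom 14 and 2; without KO 2 and control 2, chosen after seeing the data, 12 were higher and 3 lower.

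Replicate numbers did not pair the libraries as a whole: same-numbered KO and control libraries had correlations of deviations of -0.02, 0.3, -0.06 and 0.1. The 0.3 of KO 2 and control 2 was the highest between any KO and any control library. With the number as a replicate block, 12 imprinted genes were higher and 3 lower, 13 of the 16 calls were kept, and 2474 genes were higher and 2283 lower overall (2677 and 2355 without the block). Calls of imprinted genes lost under the block were Slc22a18 (edgeR adjusted p = 0.0528), Grb10 (0.0599) and Airn (0.0661). Calls gained were Rasgrf1 (log2 difference -1.56, edgeR adjusted p = 0.00244) and Sfmbt2 (0.69, 0.0311). The block takes up the low Rasgrf1 values of KO 2 and control 2 (0.0496 and 0.151 CPM). The Rasgrf1 call is therefore not separate from leaving out those 2 libraries.

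The other lists held 61 called genes as reported, 37 against controls 1 and 2 alone and 36 against controls 3 and 4 alone. Calls over all genes fell too, from 2677 higher and 2355 lower as reported. They were 1843 and 1647 against controls 1 and 2 alone, and 1700 and 2034 against controls 3 and 4 alone. The Meg3 to Dlk1 log2 ratio was 0.23 as reported, -0.67 against controls 1 and 2 alone and 1.13 against controls 3 and 4 alone.

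Some genes that were not called changed sign. With total-count scaling Sgce was 0.04, Slc38a4 0.03 and Ube3a 0.06. Against controls 1 and 2 alone Gnas was 0.01 and Impact -0.1, and against controls 3 and 4 alone Ddc was 0.07, Ndn -0.04 and Ube3a 0. Ube3a was 0 with the Y-linked covariate. Leaving out 1 library at a time, Ube3a ran from -0.05 (without KO 1) to 0.02 (without KO 3) and was 0.01 without KO 4, Nnat ran from -0.37 (without KO 4) to 0.96 (without KO 2), and Impact was -0.03 without control 4. The cause of these changes was not tested.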
